A study of Mus musculus with 90 samples.

Results

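Btg2, Ier2, Ier5, Dusp1, Dusp6, Klf4, Ccn1 and Sik1 are rapid response genes that many cell types switch on after growth factors, stress hormones or cell activity, unlike the more neuron-restricted Arc and Npas4. They were taken from the count table by mouse Ensembl identifier, 8 of 37991 genes, and all 8 passed the filter on low counts in each region. In the study, 90 RNA libraries were sequenced from amygdala, frontal cortex and hypothalamus of 32 mice, 28 of which gave all 3 regions. The residents were C57BL/6J males that had lived with a female, who was taken away before the test. Intruder residents met an unknown BALB/cJ male held in a wire mesh cage for 5 min, and for control residents that cage held a paper cup. Tissue was taken 30, 60 or 120 min after the exposure. Controls therefore shared the handling and the cage, with the cup in place of the male, and no group was left unhandled. The 18 groups of region, time and condition hold 5 libraries each, except 3 for hypothalamus controls at 30 min and 6 for each frontal cortex group at 120 min. The labels name 1 animal for each library, while the design text says that RNA was pooled and does not say how. Libraries are treated here as separate animals, and if they were pools the p-values would measure the spread between pools. In bulk tissue, fewer cells of a type and less RNA per cell cannot be told apart.

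Rapid response genes are transcribed within minutes of a stimulus by factors already present in the cell, such as CREB on cAMP response elements (CRE) and serum response factor on CArG boxes, and their transcripts are short-lived. Several of the 8 products act back on the pathways that induce them: Dusp1 is a nuclear phosphatase that switches off MAP kinases, Dusp6 is a cytoplasmic phosphatase of ERK, and Sik1 is a kinase that restrains CREB through its CRTC coactivators. Btg2 belongs to the antiproliferative BTG and TOB family and recruits a deadenylase to mRNA. Ier2 and Ier5 are related immediate early proteins, Klf4 is a zinc finger transcription factor found in endothelium among other cells, and Ccn1 (also named Cyr61) is a secreted matrix protein that signals through integrins.

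RefSeq promoter windows of GRCm38.p6 matched 6 of the 8 genes by symbol, all except Ier2 and Sik1. Each window ran from 250 bases before to 50 bases after the start of the gene, and 4 motifs were searched on both strands. The full CRE, TGACGTCA, was in the windows of Btg2 and Dusp1 and in 1.79% of all 32817 windows. The half-site TGACG, which every full CRE also holds, was in those of Btg2, Dusp1, Klf4 and Ccn1 and in 20.8% of all windows. The CArG box (1.63% of all windows) and the AP-1 motif TGANTCA (7.81%) had no match in the 6 windows, and Ier5 and Dusp6 had no match to any of the 4 motifs. The 250 bases before the start are given on the strand of the gene for 3 genes whose level fell with time and for Dusp6, for which no such fall was called with all groups of a region fitted together. Capitals mark the matches to TGACGTCA or TGACG on either strand. They are at chr1:134079156-134079405 (minus strand) for Btg2, chr17:26508473-26508722 (minus strand) for Dusp1, chr3:145649986-145650235 (minus strand) for Ccn1 and chr10:99262981-99263230 (plus strand) for Dusp6.
Btg2: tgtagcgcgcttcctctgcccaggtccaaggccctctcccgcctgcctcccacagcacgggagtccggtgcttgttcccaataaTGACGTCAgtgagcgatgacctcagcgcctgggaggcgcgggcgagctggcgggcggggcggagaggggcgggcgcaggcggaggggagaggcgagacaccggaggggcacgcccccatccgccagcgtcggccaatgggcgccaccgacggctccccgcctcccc
Dusp1: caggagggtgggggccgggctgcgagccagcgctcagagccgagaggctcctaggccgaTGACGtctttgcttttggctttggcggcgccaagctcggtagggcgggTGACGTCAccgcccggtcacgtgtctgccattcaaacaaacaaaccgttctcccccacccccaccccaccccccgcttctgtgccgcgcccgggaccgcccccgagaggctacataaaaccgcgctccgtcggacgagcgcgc
Ccn1: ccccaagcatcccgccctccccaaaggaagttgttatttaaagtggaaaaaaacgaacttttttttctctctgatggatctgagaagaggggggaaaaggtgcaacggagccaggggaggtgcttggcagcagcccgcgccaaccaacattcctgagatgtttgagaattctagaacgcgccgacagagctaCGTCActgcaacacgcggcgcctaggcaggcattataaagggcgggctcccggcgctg
Dusp6: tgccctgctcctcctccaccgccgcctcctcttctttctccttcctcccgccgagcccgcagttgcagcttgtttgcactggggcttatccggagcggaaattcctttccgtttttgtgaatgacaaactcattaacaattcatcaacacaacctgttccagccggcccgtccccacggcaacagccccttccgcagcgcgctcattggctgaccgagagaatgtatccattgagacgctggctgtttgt
The full CRE lies at -166 to -159 from the start in Btg2 and at -143 to -136 in Dusp1, which has another half-site at -191 to -187. The half-site of Ccn1 lies at -58 to -54 on the other strand. These matches describe letters only.

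Gene reads per library ranged from 38.6 to 58.86 M, and the fewest reads behind a value of the 8 genes were 68 (Ier2 in a hypothalamus control). All 28 libraries at 30 min carry the mark ISO in their column header and all 62 at 60 and 120 min carry CERV. The labels do not explain the marks, so a change from 30 min to a later time and a change with the mark cannot be told apart; the comparison of 60 with 120 min does not share this. In frontal cortex controls 2713 of 17091 genes differed between 60 and 120 min, against 4 of 17277 in the amygdala and 7 of 17676 in the hypothalamus. Hypothalamus markers summed to 854 to 2112 CPM in the hypothalamus and at most 94.9 CPM elsewhere, and cortex markers to 384 to 623 CPM in the frontal cortex and at most 216 CPM elsewhere. The amygdala list did not set the amygdala (338 to 483 CPM) apart from the hypothalamus (383 to 521 CPM), and striatum markers ranged from 193 to 2033 CPM among amygdala libraries.

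Within a condition, the level at 120 min was compared with that at 30 min. Levels are CPM (reads of a gene relative to the library's scaled total of gene reads) scaled within a region, and changes are log2 fold changes, 120 over 30 min, with their standard error. In controls, 4 of the 8 genes fell in the amygdala (Ier2, Dusp1, Ccn1 and Sik1), 3 in the frontal cortex (Ier2, Ccn1 and Sik1) and 3 in the hypothalamus (Btg2, Dusp1 and Sik1), at an adjusted p below 0.05 in edgeR's quasi-likelihood test. None rose, and over all genes the shares called lower were 0.0868%, 2.48% and 0.0792%. The median log2 change of the 8 was -0.53, -0.53 and -0.41 in amygdala, frontal cortex and hypothalamus, against -0.00044, -0.00016 and 0.0041 over all genes. In intruder residents 5 of the 8 fell in each region, where 6.09%, 8.66% and 0.962% of all genes were called lower. These were Btg2, Ier2, Dusp1, Ccn1 and Sik1 in amygdala and frontal cortex, and Btg2, Dusp1, Klf4, Ccn1 and Sik1 in the hypothalamus. Dusp6 and Ier5 were not called in either condition in these fits of all groups of a region. With the library index as a block, none of the 8 was called in the amygdala in either condition. No amygdala library at 30 min shared its index with one at 120 min, so the block compares these times only through other groups. The calls lost with it therefore cannot tell time from index. In frontal cortex and hypothalamus the block could not be fitted for these times, so the index was not tested there. Without intruder replicate 4 at 30 min the frontal cortex count in intruder residents was 2 in place of 5.

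Groups at 30 and 120 min did not overlap, with every 120 min library lower, in controls for 5 of the 8 genes in the amygdala (0.92% of all genes), 5 in the frontal cortex (3.29%) and 4 in the hypothalamus (3.32%). In intruder residents this held for 4 in the amygdala (6.22%), 1 in the frontal cortex (4.59%) and 5 in the hypothalamus (2.32%). The plot of every library shows these steps, with the 3 hypothalamus controls at 30 min as the smallest group.

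Summed vessel markers were also lower at 120 min than at 30 min in several of these groups. In amygdala intruder residents 12 endothelial markers summed to 277 to 336 CPM at 30 min and 164 to 234 CPM at 120 min, without overlap, while 10 mural (pericyte and smooth muscle) markers summed to 227 to 251 and 156 to 279 CPM. In amygdala controls the endothelial sums were 256 to 361 and 179 to 306 CPM and the mural sums 211 to 302 and 171 to 235 CPM, both with overlap. In the frontal cortex the mural sums of intruder residents did not overlap (237 to 299 and 195 to 222 CPM), and those of controls overlapped at one end (238 to 280 and 199 to 242 CPM). Endothelial sums there were 377 to 483 and 352 to 409 CPM in intruder residents and 406 to 443 and 357 to 409 CPM in controls. In the hypothalamus, controls overlapped (endothelial 251 to 282 and 244 to 263 CPM, mural 182 to 214 and 177 to 214 CPM), while intruder residents were at 262 to 283 and 143 to 217 CPM for endothelial and at 194 to 203 and 117 to 148 CPM for mural markers, without overlap. No endothelial or mural marker was at 0. Summed oligodendrocyte markers of the frontal cortex went the other way, from 2815 to 3603 CPM at 30 min to 3408 to 5413 CPM at 120 min in controls and from 2216 to 3721 to 3507 to 5794 CPM in intruder residents, with overlap in both. The share of reads assigned to no gene there was 11.4 to 13.19% at 30 min and 9.71 to 10.7% at 120 min in intruder residents, without overlap, and 10.99 to 12.7% and 9.46 to 11.3% in controls. In amygdala intruder residents that share was 10.77 to 11.95% at 30 min and 12.3 to 13.5% at 120 min, without overlap in the other direction. The part of these measures in the changes of the 8 genes was not tested.

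**Figure D1:**
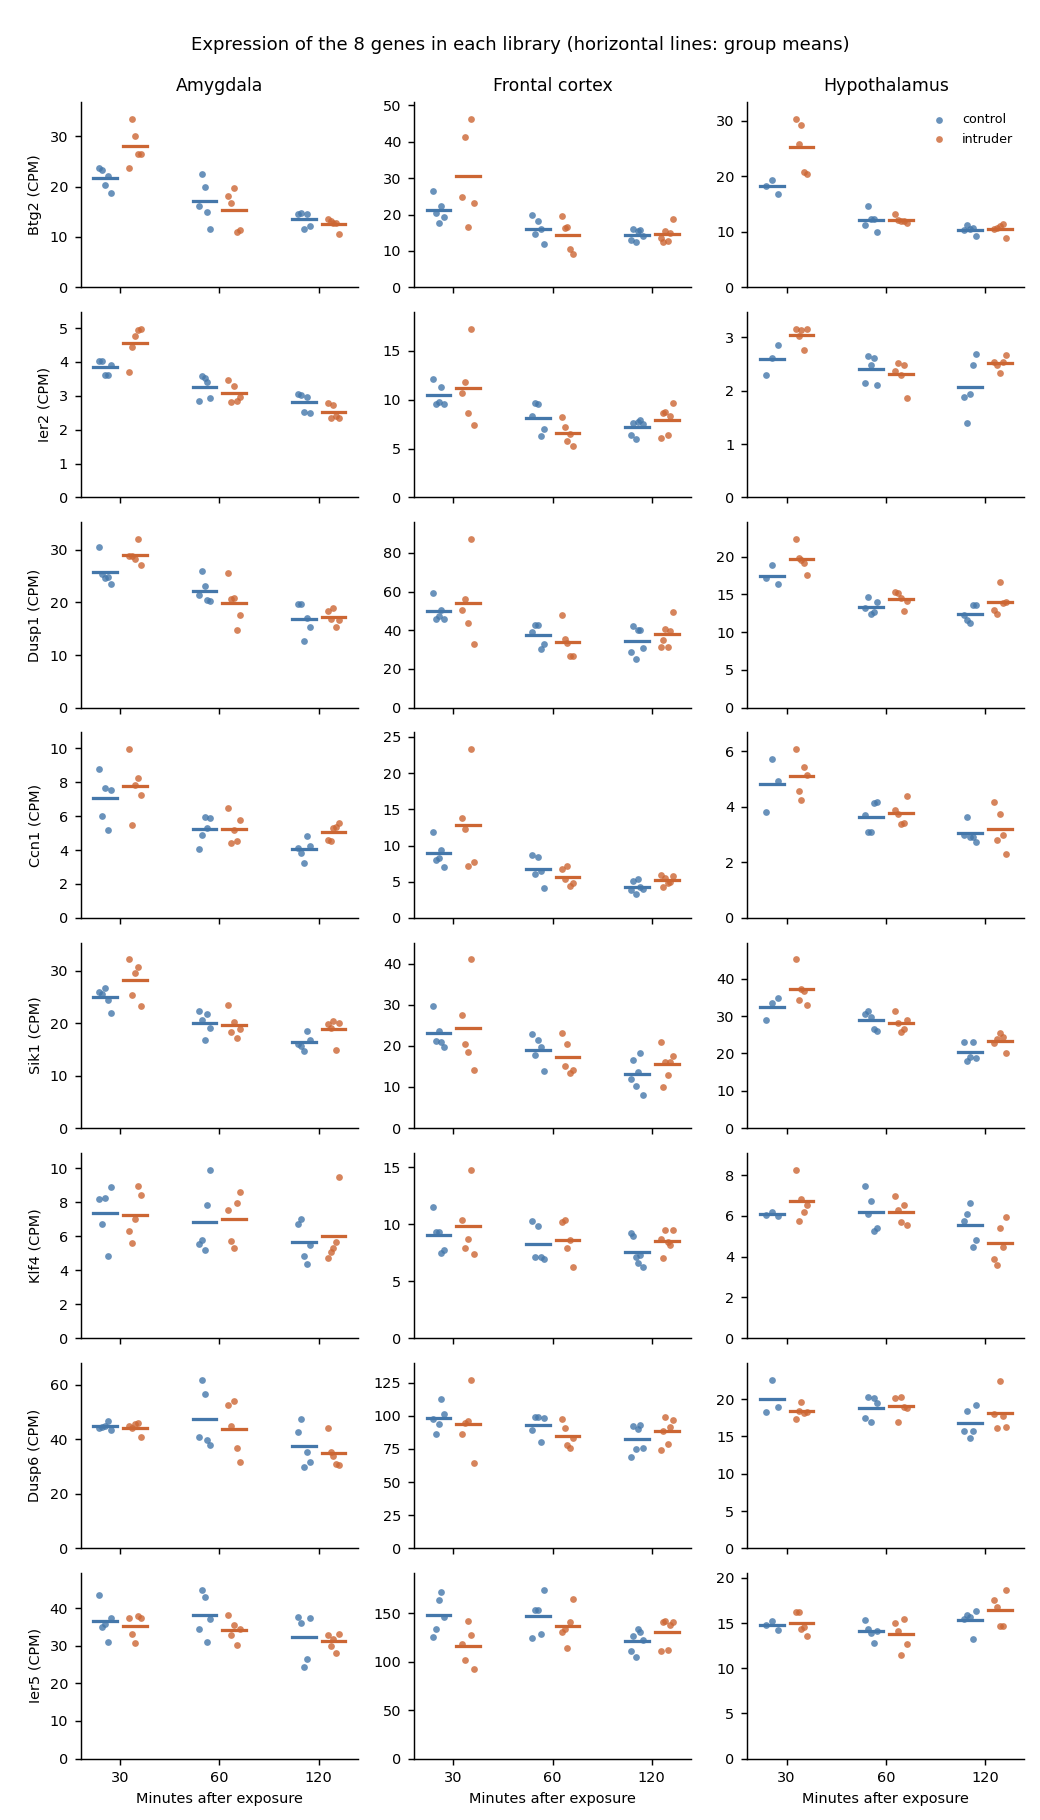
Expression in CPM of the 8 genes in every library of the 3 regions against minutes after exposure, with controls and intruder residents in separate colours and group means marked. Btg2 in hypothalamus intruder residents goes from 20.4 to 30.4 CPM at 30 min to 8.81 to 11.4 CPM at 120 min, and 1 frontal cortex intruder library at 30 min reaches 46.3 CPM for Btg2 and 87.1 CPM for Dusp1.

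Btg2, which shortens mRNA tails through its deadenylase partner, had the largest change of the 8 in intruder residents of amygdala and hypothalamus. In amygdala controls it was at 23.7, 23.3, 20.4, 22 and 18.8 CPM at 30 min and at 14.6, 14.8, 11.5, 14.5 and 12.1 CPM at 120 min. Every later library was lower, and the change of -0.68 ± 0.15 missed the threshold (edgeR adjusted p = 0.0648). It passed with DESeq2 (adjusted p = 0.00839), with the replicate block (edgeR adjusted p = 0.0267), with these 2 groups fitted alone (edgeR adjusted p = 0.0281) and in 2 of 30 fits that left out 1 library, and was -0.37 with the index block (edgeR adjusted p = 0.845). In the amygdala, only intruder replicate 6 at 120 min shared the index of the 120 min controls. That library was low in Btg2 (10.5 CPM, next 12.8). In amygdala intruder residents Btg2 was at 23.8, 33.5, 30.1, 26.4 and 26.5 CPM at 30 min and at 13.5, 13.2, 12.9, 12.8 and 10.5 CPM at 120 min. The groups lay far apart, a change of -1.16 ± 0.15 (edgeR adjusted p = 4.43e-05), which was -1.05 with an edgeR adjusted p of 0.363 with the index block. Their mean at 60 min was 15.4 ± 3.95 CPM (SD, n = 5), between 28.1 ± 3.78 at 30 min and 12.6 ± 1.19 at 120 min.

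In the hypothalamus Btg2 was at 18.3, 19.3 and 16.9 CPM in the 3 controls at 30 min and at 10.4, 11.2, 10.5, 10.7 and 9.23 CPM at 120 min. No library overlapped, and the change was -0.80 ± 0.11 (edgeR adjusted p = 0.000654). Intruder residents gave 30.4, 25.8, 29.1, 20.8 and 20.4 CPM at 30 min and 10.5, 10.7, 11.0, 11.4 and 8.81 CPM at 120 min, a change of -1.27 ± 0.10 (edgeR adjusted p = 1.52e-08). In frontal cortex controls the change of -0.55 ± 0.20 was not called (edgeR adjusted p = 0.101, and 0.00527 with these 2 groups fitted alone), although 17.7 to 26.5 CPM at 30 min did not overlap 12.4 to 16.1 CPM at 120 min. Frontal cortex intruder residents were at 24.8, 41.4, 16.7, 46.3 and 23.2 CPM at 30 min and at 12.5 to 18.7 CPM (median 14.3) at 120 min. The earlier group was wide and its lowest library lay inside the later range. The change was -1.06 ± 0.20 (edgeR adjusted p = 0.000814), and -0.86 without intruder replicate 4 (46.3 CPM), still called.

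Ier2, an immediate early nuclear protein, was at 4.04, 4.01, 3.62, 3.62 and 3.90 CPM in amygdala controls at 30 min and at 3.04, 3.02, 2.54, 2.97 and 2.49 CPM at 120 min. The groups did not overlap, and the change was -0.45 ± 0.09 (edgeR adjusted p = 0.0406), a call lost in 14 of 30 fits that left out 1 library of the region. It was also lost without the filter, with the replicate block and with these 2 groups fitted alone (edgeR adjusted p = 0.0794, 0.0935 and 0.16). Amygdala intruder residents went from 3.72, 4.43, 4.77, 4.94 and 4.98 CPM to 2.78, 2.34, 2.72, 2.39 and 2.34 CPM. Again no library overlapped, a change of -0.86 ± 0.09 (edgeR adjusted p = 3.82e-06). With the index block the amygdala changes of Ier2 were -0.53 in controls and -1.03 in intruder residents, neither called (edgeR adjusted p = 0.664 and 0.212). In the frontal cortex the change was -0.54 ± 0.16 in controls (edgeR adjusted p = 0.0494), lost in 24 of 32 fits that left out 1 library, and with limma voom, RLE scaling, the replicate block or no filter (adjusted p = 0.0502 to 0.0673). In intruder residents there it was -0.49 ± 0.16 (edgeR adjusted p = 0.0319), a call lost without 120 min replicate 1 or 4 or 30 min replicate 2 or 4, and -0.28 without the last of these (17.2 CPM). With these 2 groups fitted alone it was lost too (edgeR adjusted p = 0.101). Hypothalamus changes of -0.32 ± 0.14 in controls and -0.28 ± 0.12 in intruder residents were not called.

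Ier5, a relative of Ier2, was not called with all groups of a region fitted together. Its 6 changes from 30 to 120 min lay between -0.29 ± 0.11 (frontal cortex controls, edgeR adjusted p = 0.118, and 0.0381 with these 2 groups fitted alone) and 0.17 ± 0.11 (frontal cortex intruder residents). In the hypothalamus its controls were at 14.3 to 15.3 CPM at 30 min and 13.3 to 16.4 CPM at 120 min, ranges that overlap, with a change of 0.05 ± 0.09.

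Dusp1, the nuclear MAP kinase phosphatase, was at 30.6, 25.3, 24.7, 24.9 and 23.5 CPM in amygdala controls at 30 min and at 19.6, 19.6, 12.6, 17.0 and 15.3 CPM at 120 min. All later libraries were lower, and the change was -0.62 ± 0.12 (edgeR adjusted p = 0.0216), a call lost without control replicate 1, 2 or 3 at 30 min or 3, 4 or 6 at 120 min, and with these 2 groups fitted alone (edgeR adjusted p = 0.131). Amygdala intruder residents went from 28.8, 28.9, 28.2, 32 and 27.1 CPM to 18.4, 16.9, 18.9, 15.4 and 16.7 CPM, a change of -0.75 ± 0.12 (edgeR adjusted p = 0.000182). Both conditions were without overlap, and neither was called with the index block (-0.54 and -0.66, edgeR adjusted p = 0.724 and 0.478). In hypothalamus controls Dusp1 was at 17.1, 18.9 and 16.4 CPM and later at 12.3, 11.6, 11.2, 13.6 and 13.6 CPM. The change was -0.49 ± 0.09 (edgeR adjusted p = 0.0115), lost without control replicate 2 or 3 at 30 min or with these 2 groups fitted alone. Hypothalamus intruder residents were at 17.6 to 22.4 CPM and later at 12.4 to 16.7 CPM, a change of -0.49 ± 0.08 (edgeR adjusted p = 0.000851).

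In frontal cortex controls Dusp1 changed by -0.53 ± 0.18 and missed the threshold (edgeR adjusted p = 0.0860, and 0.0178 with these 2 groups fitted alone), although 45.6 to 59.1 CPM at 30 min was all above 25.4 to 42.0 CPM at 120 min. Frontal cortex intruder residents were at 50.7, 56.2, 43.9, 87.1 and 33.0 CPM at 30 min and at 31.2 to 49.5 CPM (median 37.3) at 120 min. These groups overlapped, and the change was -0.52 ± 0.18 (edgeR adjusted p = 0.0425). That call was lost in 8 of 32 fits that left out 1 library (intruder replicates 1, 2 or 4 at 30 min, or 1 to 5 at 120 min), with -0.28 without replicate 4 at 30 min (87.1 CPM). It was also lost with limma voom, without the filter, with the replicate block and with these 2 groups fitted alone (adjusted p = 0.0531 to 0.0958).

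Dusp6, the cytoplasmic ERK phosphatase, was at a higher level per kb than Dusp1 in each region and was not called with all groups of a region fitted together. Its changes from 30 to 120 min were -0.26 ± 0.14, -0.25 ± 0.11 and -0.25 ± 0.10 in controls of amygdala, frontal cortex and hypothalamus, and -0.34 ± 0.14, -0.09 ± 0.11 and -0.02 ± 0.09 in intruder residents. The amygdala change in intruder residents passed with these 2 groups fitted alone (edgeR adjusted p = 0.0243) and without intruder replicate 1 at 120 min (-0.45, edgeR adjusted p = 0.0476), and was -0.57 with the index block (edgeR adjusted p = 0.653). In amygdala controls the 30 min libraries lay close together at 43.6 to 46.6 CPM, while they ran from 37.8 to 61.9 CPM at 60 min and from 29.9 to 47.3 CPM at 120 min. The coefficient of variation was 2.53% at 30 min, 23.2% at 60 min and 19.7% at 120 min (n = 5 each), a difference in spread that was not tested.

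Klf4, the zinc finger factor, was called in 1 of the 6 comparisons, in hypothalamus intruder residents. It was at 8.27, 5.75, 6.83, 6.17 and 6.54 CPM there at 30 min and at 3.91, 3.60, 5.40, 4.45 and 5.94 CPM at 120 min. A single later library was above the lowest earlier one, and the change was -0.53 ± 0.13 (edgeR adjusted p = 0.0328). The call was lost without intruder replicate 1, 3 or 5 at 30 min or 1, 2 or 4 at 120 min, and with these 2 groups fitted alone. Both the endothelial and the mural sums of these groups were without overlap, and the part of vessel markers in the Klf4 change was not tested. The other 5 changes of Klf4 lay between -0.38 ± 0.21 (amygdala controls) and -0.13 ± 0.15 (hypothalamus controls). With the index block the amygdala changes were -1.52 in controls and -0.70 in intruder residents, neither called (edgeR adjusted p = 0.569 and 0.675). In the amygdala, only intruder replicate 6 at 120 min shared the index of the 120 min controls. That library was high in Klf4 (9.46 CPM, next 5.64).

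Ccn1, the secreted matrix protein, had the largest change of the 8 in the frontal cortex of both conditions. Frontal cortex controls were at 11.9, 7.99, 8.34, 9.42 and 6.98 CPM at 30 min and at 3.35 to 5.39 CPM (median 4.10) at 120 min. The 6 later libraries were all below the 5 earlier ones, a change of -1.05 ± 0.22 (edgeR adjusted p = 0.00774). Intruder residents were at 13.8, 12.3, 7.17, 23.3 and 7.66 CPM and later at 4.22 to 5.87 CPM (median 5.19). The groups were again separate, with a change of -1.32 ± 0.22 (edgeR adjusted p = 0.000302), and -0.99, still called, without replicate 4 at 30 min. In amygdala controls the change was -0.80 ± 0.15 (edgeR adjusted p = 0.0216), lost without control replicate 1, 3 or 5 at 30 min or 2 or 3 at 120 min, and with these 2 groups fitted alone (edgeR adjusted p = 0.12). In amygdala intruder residents it was -0.61 ± 0.15 (edgeR adjusted p = 0.00658). With the index block these were -1.28 and -0.86, neither called (edgeR adjusted p = 0.569 and 0.43). In the hypothalamus the change of -0.67 ± 0.16 in controls missed the threshold (edgeR adjusted p = 0.0845) and passed it with DESeq2 (adjusted p = 0.0123). That of -0.67 ± 0.14 in intruder residents passed it (edgeR adjusted p = 0.0103), and not with these 2 groups fitted alone (edgeR adjusted p = 0.088). The levels were 4.25 to 6.07 CPM at 30 min and 2.31 to 4.16 CPM at 120 min.

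Sik1, the kinase that acts back on CREB, was the one gene of the 8 called in both conditions of all 3 regions, although 5 of these 6 calls were lost under at least 1 alternative. In hypothalamus controls it was at 29.0, 33.4 and 34.7 CPM at 30 min and at 22.9, 17.9, 18.9, 23.0 and 18.9 CPM at 120 min. The groups were separate, with a change of -0.67 ± 0.10 (edgeR adjusted p = 0.000979). Hypothalamus intruder residents went from 45.2, 34.3, 37.2, 36.7 and 32.9 CPM to 22.9, 23.8, 25.5, 24.3 and 20.1 CPM, a change of -0.67 ± 0.09 (edgeR adjusted p = 6.01e-05). In amygdala controls Sik1 was at 26.0, 25.5, 26.6, 24.3 and 22 CPM and later at 16.0, 15.6, 14.7, 18.4 and 16.9 CPM. No library overlapped in either region. The amygdala change was -0.61 ± 0.10 in controls (edgeR adjusted p = 0.00566) and -0.58 ± 0.10 in intruder residents (edgeR adjusted p = 0.000401). With the index block these were -0.42 and -0.24 (edgeR adjusted p = 0.733 and 0.843), neither called, and the call in hypothalamus controls was lost with these 2 groups fitted alone (edgeR adjusted p = 0.114). In frontal cortex controls it was -0.81 ± 0.22 (edgeR adjusted p = 0.0348), lost without control replicate 1, 2 or 3 at 30 min or 3, 4 or 6 at 120 min, and at the edge with the replicate block (edgeR adjusted p = 0.05, not called). In frontal cortex intruder residents it was -0.64 ± 0.22 (edgeR adjusted p = 0.0434), lost without intruder replicate 1 or 4 at 30 min or 2, 3, 4 or 5 at 120 min, and -0.37 without replicate 4 at 30 min (41.1 CPM). That call was also lost with limma voom, without the filter, with the replicate block and with these 2 groups fitted alone (adjusted p = 0.0544 to 0.0907).

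Between 60 and 120 min, where all libraries carry the same header mark, 2 calls were made in controls. In both regions concerned, the controls at 60 and at 120 min shared no library index, so time and index cannot be told apart there. Sik1 in the hypothalamus went from 30.5, 31.2, 29.8, 26.6 and 26.0 CPM to 22.9, 17.9, 18.9, 23.0 and 18.9 CPM. All later libraries were lower, a change of -0.50 ± 0.09 (edgeR adjusted p = 0.0174), and Sik1 was 1 of the 8 called lower there, against 0.0396% of all genes. The call was lost without control replicate 1, 2 or 3 at 60 min or 2, 3 or 6 at 120 min, where the edgeR adjusted p was 0.0688 to 0.0949, and with these 2 groups fitted alone (0.09). Ccn1 in the frontal cortex went from 8.67, 6.08, 8.39, 6.47 and 4.17 CPM to 3.35 to 5.39 CPM. These groups overlapped, and the change of -0.64 ± 0.23 lay at the edge of the threshold (edgeR adjusted p = 0.05). It was lost in 22 of 32 fits that left out 1 library, and with limma voom, RLE scaling or no filter (adjusted p = 0.0505 to 0.109), and 7.03% of all genes were called lower there.

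In amygdala controls none of the 8 was called between 60 and 120 min (0.0232% of all genes were called lower), although all 8 were lower at 120 min, with a median change of -0.32 and 7 of 8 at an unadjusted p below 0.05, as were 9.53% of all genes. Dusp1 had the largest of these changes (-0.40 ± 0.12, edgeR adjusted p = 0.268). In intruder residents none of the 8 was called between 60 and 120 min, where 0.0695%, 22.9% and 0.441% of genes were called in amygdala, frontal cortex and hypothalamus. At an unadjusted p below 0.05 there were 2, 0 and 4 of the 8, against 11.1%, 36.4% and 12.2% of all genes.

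**Figure D2:**
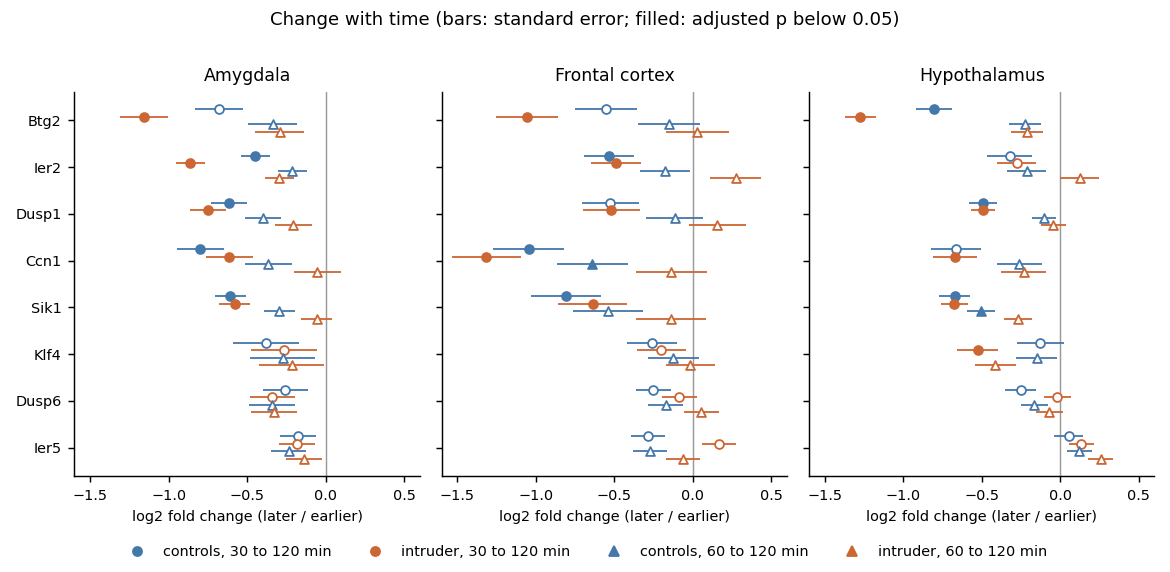
Log2 fold change, later over earlier, of the 8 genes in each region for 120 against 30 min and 120 against 60 min in controls and intruder residents, with standard errors; filled symbols have an adjusted p below 0.05. Btg2 in intruder residents lies at -1.16, -1.06 and -1.27 for 120 against 30 min in amygdala, frontal cortex and hypothalamus, and Ier5 has no filled symbol.

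Whether the change with time in controls differed between regions was tested in 1 fit of all 90 libraries. From 30 to 120 min none of the 8 was called, where 1.51% of 18337 genes were, and the smallest value was that of Ier5 (edgeR adjusted p = 0.543). From 60 to 120 min none was called either, where 3.35% of genes were. Sik1, called between these times in hypothalamus controls, gave an edgeR adjusted p of 0.760 in this test, so its change is not shown to differ between regions.

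The contrast of intruder with control compares a male in the wire mesh cage with a paper cup in the same cage. None of the 8 genes was called at any time in any region. The shares of all genes called were 0.0%, 0.0% and 0.538% at 30, 60 and 120 min in the amygdala, 0.0% at each time in the frontal cortex, and 0.0%, 0.0% and 0.192% in the hypothalamus. At an unadjusted p below 0.05 there were 2 of the 8 in the amygdala at 30 min (2.74% of all genes), 3 in the frontal cortex (6.28%) and 1 in the hypothalamus (1.92%). At 60 min there were 0 in each region (7.13%, 2.54% and 2.22%). At 120 min there were 2 in the amygdala (15.1%), 0 in the frontal cortex (5.34%) and 3 in the hypothalamus (11.5%). DESeq2 and limma voom also called none of the 8 in these 9 comparisons.

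Btg2 was at an unadjusted p below 0.05 in all 3 regions at 30 min. Most of these mice gave all 3 regions, so these are not separate repeats. In the hypothalamus the 5 intruder residents (20.4 to 30.4 CPM) were all above the 3 controls (16.9 to 19.3 CPM), a log2 difference of 0.48 ± 0.12 (unadjusted p = 0.000309, edgeR adjusted p = 1.000). In the amygdala 23.8 to 33.5 CPM was also all above 18.8 to 23.7 CPM, with the nearest libraries almost touching, and the difference was 0.37 ± 0.15 (unadjusted p = 0.0202, edgeR adjusted p = 1.000). Intruder residents lay wholly above controls for 1 of the 8 in the amygdala (0.359% of all genes), 0 in the frontal cortex (0.451%) and 1 in the hypothalamus (1.63%). In the frontal cortex the controls (17.7 to 26.5 CPM) lay inside the wide intruder range, with a difference of 0.52 ± 0.20 (unadjusted p = 0.0159, edgeR adjusted p = 0.771) and 0.32 without intruder replicate 4. At 60 and 120 min the 6 differences of Btg2 lay between -0.16 and 0.02.

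Ier2 in the amygdala at 30 min was at 3.72, 4.43, 4.77, 4.94 and 4.98 CPM in intruder residents and at 3.62 to 4.04 CPM in controls. In 4 of 5 intruder libraries it was above all controls, a difference of 0.25 ± 0.09 (unadjusted p = 0.0102, edgeR adjusted p = 1.000). Ccn1 in the frontal cortex at 30 min had a difference of 0.53 ± 0.23 (unadjusted p = 0.0256, edgeR adjusted p = 0.771), and of 0.20 without intruder replicate 4 (23.3 CPM). Ier5 went the other way there, at 92.8 to 142 CPM in intruder residents and 126 to 172 CPM in controls, with a difference of -0.35 ± 0.11 (unadjusted p = 0.00416, edgeR adjusted p = 0.771).

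At 120 min, Ccn1 was at 4.53 to 5.61 CPM in amygdala intruder residents and 3.25 to 4.83 CPM in controls (0.32 ± 0.15, unadjusted p = 0.0400, edgeR adjusted p = 0.309). Sik1 there was at 15 to 20.5 and 14.7 to 18.4 CPM (0.21 ± 0.10, unadjusted p = 0.0444, edgeR adjusted p = 0.318). Both pairs of groups overlapped. In the hypothalamus at 120 min the differences were 0.28 ± 0.13 for Ier2 (unadjusted p = 0.0348, edgeR adjusted p = 0.411), 0.17 ± 0.08 for Dusp1 (unadjusted p = 0.0428, edgeR adjusted p = 0.422) and 0.20 ± 0.09 for Sik1 (unadjusted p = 0.0320, edgeR adjusted p = 0.405), also with overlap. Under the alternatives and left-out libraries they ran from 0.16 to 0.53 for Ier2, 0.09 to 0.25 for Dusp1 and 0.16 to 0.25 for Sik1, never called.

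Whether the intruder effect changed with time was tested within each region. None of the 8 was called, where 0.0%, 0.0% and 0.0113% of genes were in amygdala, frontal cortex and hypothalamus. The smallest unadjusted values were those of Btg2 in the hypothalamus (unadjusted p = 0.00679, edgeR adjusted p = 0.625) and Ier2 in the amygdala (unadjusted p = 0.00878, edgeR adjusted p = 0.274). The changes of Btg2 with time in intruder residents and in controls are therefore not shown to differ.

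**Figure D3:**
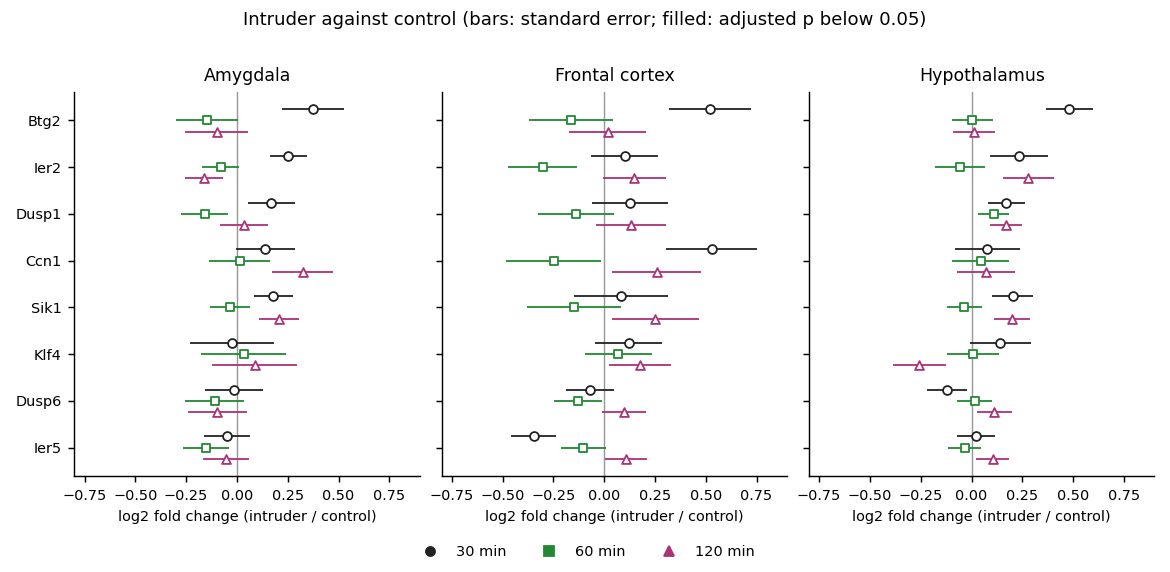
Log2 fold change of intruder over control of the 8 genes at 30, 60 and 120 min in each region, with standard errors; a filled symbol would mark an adjusted p below 0.05. Btg2 at 30 min lies at 0.37, 0.52 and 0.48 in amygdala, frontal cortex and hypothalamus, and no symbol is filled.

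Levels were compared between regions in controls as the mean of the 3 time means, with all 90 libraries scaled together, so these CPM differ slightly from those above. Per kb of exon, Ier5 led in the frontal cortex at 45.1 CPM per kb, followed by Dusp6 at 31.0, Dusp1 at 13.0, Btg2 at 6.71, Ier2 at 6.00, Sik1 at 3.82, Ccn1 at 3.51 and Klf4 at 2.90. In the amygdala the order was Dusp6 at 13.9 CPM per kb, Ier5 at 10.9, Dusp1 at 6.56, Btg2 at 6.37, Sik1 at 3.99, Ccn1 at 2.70, Klf4 at 2.19 and Ier2 at 2.18. In the hypothalamus it was Dusp6 at 5.48 CPM per kb, Sik1 at 4.91, Btg2 at 4.58, Ier5 at 4.16, Dusp1 at 4.04, Klf4 at 1.81, Ccn1 at 1.76 and Ier2 at 1.43. Neighbours such as Dusp1 and Btg2 in the amygdala, or Ier5 and Dusp1 in the hypothalamus, had overlapping libraries.

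Between hypothalamus and frontal cortex all 8 were called, where 81.9% of genes were, 7 of them lower in the hypothalamus. Ier5 was at 112 to 186 CPM in 16 frontal cortex controls, 24.4 to 45.0 CPM in 15 of the amygdala and 11.8 to 15.1 CPM in 13 of the hypothalamus. No region overlapped another, and the log2 difference of hypothalamus minus frontal cortex was -3.43 ± 0.08 (edgeR adjusted p = 1.63e-53). It was -2.50 ± 0.08 for Dusp6, -2.05 ± 0.09 for Ier2, -1.69 ± 0.09 for Dusp1, -0.96 ± 0.12 for Ccn1, -0.68 ± 0.11 for Klf4 and -0.57 ± 0.10 for Btg2. Sik1 was the exception at 0.37 ± 0.10 (edgeR adjusted p = 0.000439), with 16.7 to 32.2 CPM in the hypothalamus and 8.50 to 31.5 CPM in the frontal cortex.

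Between amygdala and frontal cortex 6 of the 8 were called, all lower in the amygdala, where 67.6% of genes were called. The differences were -2.04 ± 0.06 for Ier5, -1.45 ± 0.08 for Ier2, -1.17 ± 0.07 for Dusp6, -0.99 ± 0.08 for Dusp1, -0.41 ± 0.10 for Klf4 and -0.35 ± 0.11 for Ccn1. Btg2 (-0.08 ± 0.10) and Sik1 (0.08 ± 0.09) were not called. Between amygdala and hypothalamus all 8 were called, where 72.3% of genes were. The amygdala was higher for 7, from Klf4 (0.27 ± 0.11, lost without amygdala control replicate 6 at 60 min and with upper-quartile scaling, where it was 0.22 with an edgeR adjusted p of 0.0694) to Ier5 (1.39 ± 0.07), and lower for Sik1 (-0.29 ± 0.10). Most genes differ between these regions, so the counts are near the background and the sizes are the description.

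**Figure D4:**
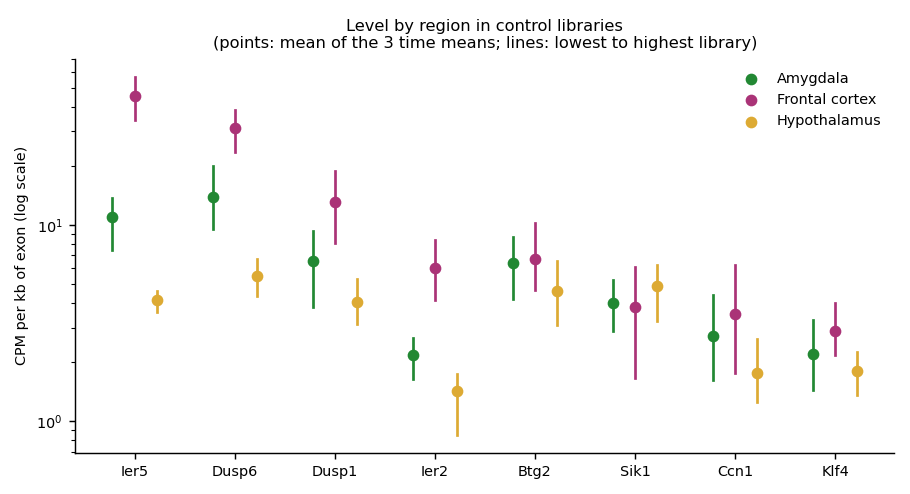
Level in CPM per kb of exon (log axis) of the 8 genes in control libraries of the 3 regions; points are the mean of the 3 time means and lines run from the lowest to the highest library. Ier5 goes from 45.1 in the frontal cortex to 4.16 in the hypothalamus, and Sik1 has its highest point, 4.91, in the hypothalamus.

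Variation between animals was described by deviations from the group mean of log2(CPM + 1), with 100000 permutations within groups and adjustment over 84 pairs. In the frontal cortex 17 of 28 pairs were called, all positive. An absolute r of at least 0.466, the smallest of any called pair, was reached there by 21 of the 28 pairs and by 11.9% of all pairs of the 17091 genes tested. Without intruder replicate 4 at 30 min it was 14 of 28 and 12.8%, and the median r of the 28 was 0.488 in place of 0.621. The highest was Ier2 with Dusp1 (Pearson r = 0.915, Spearman rho = 0.887, n = 32, permutation p = 1e-05 for each, the smallest these permutations can give, adjusted p = 0.00028 and 0.00014), with r = 0.863 without the 2 farthest libraries. Dusp1 with Dusp6 (r = 0.840, rho = 0.796) and Ccn1 with Sik1 (r = 0.828, rho = 0.857) followed, each with an adjusted permutation p of 0.00028 for r, and r = 0.735 and 0.799 without the 2 farthest. Ier5 had 1 called partner there, Dusp6 (r = 0.636, rho = 0.617, adjusted permutation p = 0.0033 for r). Animals high in 1 of the other genes in the frontal cortex tended to be high in several.

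In the amygdala 9 of 28 pairs were called, 8 of them positive. Btg2 with Dusp6 (r = 0.804, rho = 0.762, n = 30, adjusted permutation p = 0.00042 for r) was the highest, and Btg2 with Klf4 the negative one (r = -0.575, rho = -0.528, adjusted permutation p = 0.0102 and 0.0342, r = -0.490 without the 2 farthest). The same r was reached by 10 of 28 pairs in the amygdala, against 19.15% of all gene pairs there, and by 2 of 28 in the hypothalamus, against 14.4%, which is below the background. In the hypothalamus 1 of 28 was called, Btg2 with Sik1 (r = 0.528, rho = 0.447, n = 28, adjusted permutation p = 0.0336 for r and 0.0877 for rho). The median r was 0.621 in the frontal cortex, 0.291 in the amygdala and 0.0949 in the hypothalamus, where over all gene pairs it was -0.001, -0.0004 and -0.0013; the difference between regions was not tested. Both genes of a pair come from the same dissection. In the amygdala, Dusp6 (r = 0.782, rho = 0.748) and Btg2 (r = 0.710, rho = 0.672) also moved with summed cortex markers (adjusted permutation p = 0.0036 and 0.00576 for r, over 72 relations), and the part of dissected tissue in the pairs was not tested. In the frontal cortex Ier5 went up with the cortex sum (r = 0.717, rho = 0.669, adjusted permutation p = 0.00216 for r) and down with the striatum sum (r = -0.546, rho = -0.558, adjusted permutation p = 0.0343 for r), and Sik1 went down with the cortex sum (r = -0.544, rho = -0.540, adjusted permutation p = 0.0379 for r). In the hypothalamus Btg2 went down with the oligodendrocyte sum (r = -0.532, rho = -0.474, adjusted permutation p = 0.0436 for r and 0.111 for rho). An absolute r of at least 0.532 was reached by 14.2% of all frontal cortex genes with the cortex sum, 8.66% with the striatum sum, and 6.95% of hypothalamus genes with the oligodendrocyte sum.

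Across regions of 1 animal, 1 of 24 relations was called by r, Dusp1 in amygdala and frontal cortex (r = 0.649, rho = 0.706, n = 30, permutation p = 0.00013 and 0.00019, adjusted p = 0.00312 and 0.00456). It was 0.582 without the 2 farthest animals and 0.679 within libraries of the same index. These relations were not computed over all genes, so how usual such an r is across regions is not known. Sik1 in the same regions had r = 0.527 and rho = 0.614 (adjusted permutation p = 0.072 and 0.0126). Klf4 in frontal cortex and hypothalamus had r = 0.535 and rho = 0.647 (n = 28, adjusted permutation p = 0.072 and 0.00948), with r = 0.683 without the 2 farthest animals and 0.359 within the same index.

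Vessel markers moved with Klf4 and Btg2 among animals, in 5 of 48 relations called. An absolute r of at least 0.632, the smallest of the called ones, was reached in the amygdala by 2 of the 8 genes and 9.66% of all genes with the endothelial sum, and by 2 of the 8 and 7.79% with the mural sum. For the endothelial sum it was 1 of the 8 and 4.01% in the hypothalamus and 0 of the 8 and 0.65% in the frontal cortex. In the amygdala Klf4 went up with the endothelial sum (r = 0.836, rho = 0.882, n = 30, permutation p = 1e-05, adjusted p = 0.00024) and the mural sum (r = 0.817, rho = 0.841, adjusted permutation p = 0.00024). Without the 2 farthest libraries these were 0.831 and 0.800, and within the same index 0.877 and 0.802. Btg2 went down with the endothelial sum (r = -0.632, rho = -0.529, adjusted permutation p = 0.0316 and 0.118) and the mural sum (r = -0.682, rho = -0.620, adjusted permutation p = 0.0261 and 0.0426), with -0.594 and -0.688 without the 2 farthest. In the hypothalamus Klf4 moved with the endothelial sum (r = 0.634, rho = 0.60, n = 28, adjusted permutation p = 0.0367 and 0.0584). In the frontal cortex none was called, with r = 0.124 for Klf4 and -0.291 for Btg2 against the endothelial sum. Over the 72 relations with tissue lists, Klf4 in the amygdala also went up with the striatum sum (r = 0.697, rho = 0.681, adjusted permutation p = 0.0036 for r) and the oligodendrocyte sum (r = 0.598, rho = 0.613, adjusted permutation p = 0.016 for r). Ccn1 did so as well, with r = 0.621 and rho = 0.648 for striatum (adjusted permutation p = 0.016 for r) and r = 0.582 and rho = 0.598 for oligodendrocytes (adjusted permutation p = 0.0227 for r). Many genes moved with these sums in either direction: an absolute r of at least 0.532, the smallest called over these lists, was reached by 38.7% of all genes with the striatum sum and 36% with the oligodendrocyte sum in the amygdala, and 14.8% with the cortex sum. The part of dissected tissue in the vessel relations was not tested.

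**Figure D5:**
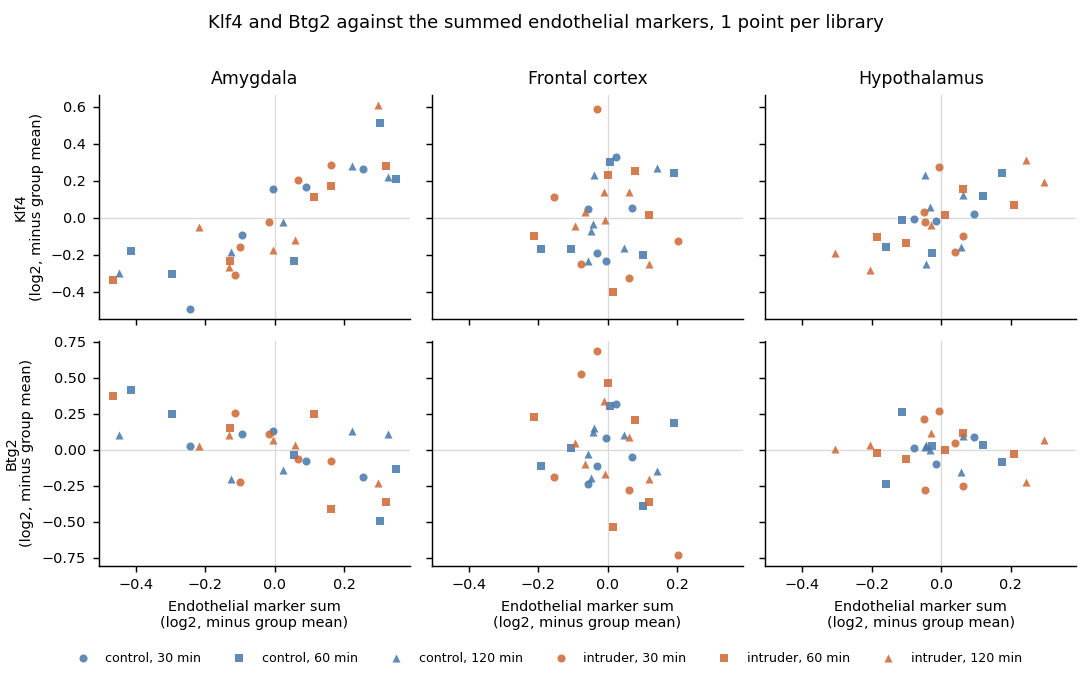
Deviation from the group mean of log2(CPM + 1) of Klf4 and Btg2 against the deviation of the log2 summed CPM of 12 endothelial markers in each region; each point is a library. Klf4 goes up with the markers in the amygdala (r = 0.836) and hypothalamus and little in the frontal cortex (r = 0.124), and Btg2 goes down with them in the amygdala (r = -0.632).

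The summed markers of 15 cell type and tissue lists were compared between intruder and control in 135 exact permutation tests, and 0 passed adjustment (4 had an unadjusted exact p below 0.05). With groups this small, the smallest exact p is too large for any list alone to pass over 135 tests. The 0 therefore does not show that the lists were alike between conditions. In the hypothalamus at 120 min endothelial and mural sums had log2 differences of -0.51 and -0.52 (exact p = 0.00794 each, the smallest that 5 against 5 allows, adjusted p = 0.536). Klf4 in the same groups was at 3.91, 3.60, 5.40, 4.45 and 5.94 CPM in intruder residents and 5.77, 6.09, 6.64, 4.48 and 4.83 CPM in controls, a difference of -0.26 ± 0.13 (unadjusted p = 0.0622, edgeR adjusted p = 0.460). The groups overlapped, and the part of vessel markers was not tested.

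Beside the 8, 41 other rapid response genes were listed, of which 40, 40 and 41 were tested in amygdala, frontal cortex and hypothalamus. In controls from 30 to 120 min 6, 8 and 4 were called lower and 0 higher, where 0.0868%, 2.48% and 0.0792% of all genes were called lower, with median log2 changes of -0.31, -0.20 and -0.10. In intruder residents 13, 5 and 10 were called lower, where 6.09%, 8.66% and 0.962% of all genes were, so the 5 of 40 in the frontal cortex are near the background. Homer1 in the amygdala was the 1 called higher (0.40 ± 0.12), a gene named after its value was seen. Fos, an AP-1 factor, changed by -1.28 ± 0.15 in amygdala controls (edgeR adjusted p = 9.0e-05) and by -1.74 ± 0.18 in hypothalamus controls (edgeR adjusted p = 6.1e-06). Junb, its partner, changed by -1.29 ± 0.14 in hypothalamus controls (edgeR adjusted p = 6.1e-06), and Egr2 by -1.34 ± 0.28 in frontal cortex controls (edgeR adjusted p = 0.0073). None of the 41 was called between intruder and control at any time.

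Of 17 ERK feedback genes none was called from 30 to 120 min in controls. In intruder residents Spred1 rose (0.32 ± 0.05) and Spry1 fell (-0.28 ± 0.08) in the amygdala, Etv5 (0.23 ± 0.08) and Errfi1 (0.21 ± 0.07) rose in the frontal cortex, and Spred1 rose in the hypothalamus (0.22 ± 0.05). Over all genes 2584 of 17277, 3021 of 17091 and 341 of 17676 were called in either direction in intruder residents of amygdala, frontal cortex and hypothalamus, so 2 of 17 is no larger a share in the first pair of regions. Among 14 family relatives of the 8, Ier3 fell in amygdala controls (-0.37 ± 0.07), and Ier3 (-0.51 ± 0.09) and Ier5l (-0.36 ± 0.08), a relative of Ier5, in frontal cortex controls. In intruder residents Ier3 (-0.27 ± 0.07) and Tob1 (-0.17 ± 0.04), a relative of Btg2, fell and Sik2 rose (0.42 ± 0.11) in the amygdala. In the same condition Sik3 rose in the frontal cortex (0.14 ± 0.05) and Klf2 fell in the hypothalamus (-0.54 ± 0.14). The relatives called were thus 1, 2 and 0 of 14 in controls, where 25 of 17277, 755 of 17091 and 31 of 17676 of all genes were called, and 3, 1 and 1 of 14 in intruder residents. Of 16 glucocorticoid-responsive genes, 0, 3 and 0 rose in controls of amygdala, frontal cortex and hypothalamus and 6, 6 and 3 in intruder residents, and none fell. Over all genes 0.0579%, 1.94% and 0.0962% were called higher at 120 min in controls of these regions and 8.86%, 9.02% and 0.967% in intruder residents. Fkbp5, a regulator of the glucocorticoid receptor, rose by 0.82 ± 0.16 in frontal cortex controls. Some genes are in more than 1 of these lists.

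Among genes other than the 8, those whose 18 group means, centred within region, were most like those of each of the 8 are given by Pearson's r as a description, with region, time and condition shared by all points. For Btg2, Dusp1 and Sik1 the first was 1700016P03Rik (r = 0.930, 0.934 and 0.958). It was followed by Myct1 and Mex3d for Btg2 (r = 0.922 and 0.908), Arc and Npas4 for Dusp1 (r = 0.933 and 0.920), and Fos and Apold1 for Sik1 (r = 0.944 and 0.935). Ier2 was nearest to Npas4, Myct1 and Arc (r = 0.883, 0.881 and 0.874), and Ccn1 to Map3k14, Apold1 and Adamts1 (r = 0.934, 0.933 and 0.923). Klf4 was nearest to Sp100, Cyyr1 and She (r = 0.940, 0.936 and 0.928), Dusp6 to Sox21, Tm4sf1 and Per1 (r = 0.875, 0.864 and 0.820), and Ier5 to Clba1, Epor and Serf2 (r = 0.865, 0.865 and 0.849). Among the 8, the highest r was 0.951 (Btg2 with Dusp1), above that of any gene named for either. The same held for Ier2 with Dusp1 (0.948). Ccn1 with Sik1 (0.927) was above some of those named, while Ier5 with Btg2 gave 0.0355.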

How the data were processed

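The deposited table holds raw read counts per mouse Ensembl gene that the authors made; per the submitters' processing notes, CASAVA 1.8.2, TopHat2 2.0.8, HTSeq 0.6.1, edgeR 3.2.4 and R 3.0.0 were used with build NCBIM37. The kit is stranded per the labels' protocols, and the strand setting of the counting is not given in the sources used here. The 5 entries that name no gene were left out of library sizes (reads assigned to no gene were 8.63 to 14.46%), and 32919 of 37991 identifiers had a symbol. Sequences are RefSeq's of GRCm38.p6, matched by symbol, and no coordinate of the files' build is used. The members and lists were chosen with earlier results of these data known.

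Counts were tested per region with edgeR 4.0.16 in R 4.3.3 (TMM scaling, filterByExpr, quasi-likelihood test, 6 groups in a fit, Benjamini-Hochberg over all 17277, 17091 and 17676 genes of amygdala, frontal cortex and hypothalamus, threshold 0.05). Regions were compared in 1 fit of 18337 genes, where libraries of the same animal pair; with the animal as a block the member counts were within 1.5 times of those reported. Correlations used Python 3.11.15 with scipy 1.17.1. All 8 genes are named; genes of other lists are the up to 3 called with the smallest adjusted p, and others named are all of a short count. DESeq2 1.42.0, limma 3.58.1, other scalings and filters, blocks and left-out libraries were the alternatives. Libraries with the same replicate number showed no steady likeness within a region (correlation of deviations -0.66 to 0.69 over 41 pairs). Dissection differences also enter these values, so a pairing by replicate number is not excluded. On simulated data for 30 against 120 min in controls, a log2 change of 0.5 was recovered in 76%, 83% and 78% of changed genes in amygdala (17162 genes), frontal cortex (17003) and hypothalamus (17577), and one of 1 in 92%, 100% and 94%. Unchanged genes called were 4, 5 and 5. The simulated noise was independent between genes and held no index or dissection differences, so these shares may not hold for the 8 genes.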

Additional observations from a re-analysis of the deposited data

Results flagged for a closer look

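The 8 genes were each tested in the 17 groups of 5 or 6 libraries for 1 library far from the others. Of these 136 tests 5 found one, and chance gives about 1 in 20. In the amygdala at 120 min, intruder replicate 6 was low in Btg2 at 10.53 CPM (next 12.78) and high in Klf4 at 9.464 CPM (next 5.637), and intruder replicate 4 was low in Sik1 at 14.95 CPM (next 19.1). In amygdala controls at 30 min, replicate 1 was high in Dusp1 at 30.61 CPM (next 25.34). In hypothalamus controls at 120 min, replicate 2 was high in Ccn1 at 3.649 CPM (next 2.995).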

How the results depend on the processing

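The fits without the 30 min libraries, the 60 against 120 min region test and the tissue lists were chosen after seeing the data. Among the values under alternatives, 4411 kept their direction and side of the threshold, 147 lost a call, 13 gained one, 5 reversed and 67 counts moved by over 1.5 times. From 30 to 120 min, the index block left 0 genes called in the amygdala in controls and 0 in intruder residents. Amygdala libraries at these times shared no index, so these counts cannot tell time from index. With only the 2 groups compared in the fit, the counts were 2 in amygdala controls, 6 in frontal cortex controls, 2 in frontal cortex intruder residents, 1 in hypothalamus controls and 3 in hypothalamus intruder residents. Frontal cortex counts from 30 to 120 min were 1 in controls with the replicate block, and in intruder residents 3 with limma voom, 3 without the filter and 3 with the replicate block. In amygdala controls the replicate block lost Ier2 and gained Btg2. Between 60 and 120 min in frontal cortex controls they were 0 with limma voom, with RLE scaling and without the filter, and 2 with only the 2 groups; in hypothalamus controls 0 with only the 2 groups. Without any 30 min library, Ccn1 in frontal cortex controls and Sik1 in hypothalamus controls were still called (edgeR adjusted p = 0.0207 and 0.0172). With 1 library left out, counts from 30 to 120 min ran from 1 to 5 in amygdala controls, 5 to 6 in amygdala intruder residents, 1 to 4 in frontal cortex controls, 2 to 5 in frontal cortex intruder residents, 2 to 4 in hypothalamus controls and 4 to 5 in hypothalamus intruder residents. From 60 to 120 min in controls they ran from 0 to 1 in frontal cortex and in hypothalamus, and between amygdala and hypothalamus from 7 to 8. Reversed values were uncalled: Ier5 in hypothalamus controls was -0.031 with the replicate block. Dusp6 in intruder residents ran from -0.193 to 0.0481 in the frontal cortex with 1 library left out, the highest without replicate 4 at 30 min. In the hypothalamus it ran from -0.111 to 0.0202, above 0 without replicate 2 (0.0202) or 6 (0.0175) at 120 min or replicate 3 (0.01) at 30 min. Of the 72 relations with striatum, cortex and oligodendrocyte sums 10 were called, against 5 of the 48 with vessel sums. Among comparisons of times, the index block could be fitted in the amygdala and for 60 against 120 min in frontal cortex intruder residents, and not in the others; for intruder against control it could not be fitted in the frontal cortex at 120 min. The causes were not tested.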
